A study of Apostichopus japonicus with 12 samples.

Results

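Heat added to low oxygen was examined by setting the respiratory tree of Apostichopus japonicus under thermal and hypoxic stress together against the respiratory tree under hypoxic stress alone. This comparison used 6 of the 12 libraries of the study, 3 on each side, and 39002 of 59494 features, those with at least 0.5 FPKM (fragments scaled to feature length and to library size) in at least 3 of these 6 libraries. The combined group was kept at 26 °C and 2 mg/L, and the hypoxic group at 2 mg/L with no temperature stated in the labels. A thermal group at 26 °C, with no oxygen level stated, and a normal control group, with neither stated, had 3 libraries each. Reading the comparison as one of heat rests on the hypoxic group having been at the control temperature. Whether replicates came from separate animals is not stated, and p-values therefore measure the spread between these libraries only, which may be technical.

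The respiratory tree is the branched organ, opening from the cloaca, through which a sea cucumber takes up oxygen from the water it pumps in. Warm water holds less oxygen than cool water and raises the oxygen demand of an animal that does not regulate its temperature, and this species becomes dormant in summer. In animals generally, heat induces chaperone genes through heat shock factor, and low oxygen acts on metabolism and oxygen supply through hypoxia-inducible factor. The deposited table does not pair its 28586 AJAP and 30908 MSTRG identifiers with gene names, and 0 of them matched the RefSeq gene table, so neither response can be followed by gene name here, and the tissue could not be checked by markers.

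The 6 libraries held between 21035624 and 23922220 reads, recovered from the FPKM values, and near 0.5 FPKM a value rested on a median of 10 reads. Combined replicate 3 stood close to the hypoxic side. Its log2 values correlated across features at 0.858 and 0.860 with the other combined libraries, and at 0.860, 0.873 and 0.861 with the 3 hypoxic ones. Combined replicates 1 and 2 correlated at 0.840 with each other and at 0.818 to 0.843 with the hypoxic libraries, which among themselves ran from 0.872 to 0.888. The median SD of a feature on the log2 scale was 0.50 in the combined and 0.46 in the hypoxic group.

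Between the combined and the hypoxic group 26 features differed. Of these, 17 were higher (0.0436% of the features tested) and 9 lower (0.0231%) in the combined group. Together they were 0.0667% of the features tested (limma, Benjamini-Hochberg adjusted p under 0.05). The log2 changes of the higher features ran from 1.61 to 5.30 with a median of 3.10. Those of the lower ones ran from -4.60 to -1.64 with a median of -2.43. Both extremes had almost no reads on the low side, so their size depends on the 0.5 FPKM added before taking logs. The largest rise, at MSTRG.43287, had 5 reads in the hypoxic libraries. The largest fall, at MSTRG.58781, had 0 reads in the combined ones. Reads were also few in the hypoxic libraries at MSTRG.26801 (4), AJAP30268 (9), MSTRG.1543 (0) and MSTRG.29334 (6). At these and MSTRG.43287 no hypoxic library reached 0.5 FPKM, so they passed the filter through the combined group only. MSTRG.78549 had 7 reads in the combined libraries. The ranges and medians above thus depend on the added 0.5 FPKM too. On recovered reads, the voom method of limma gave 7.28 at MSTRG.43287 and -7.22 at MSTRG.58781. It gave 7.67 at AJAP18945 (5.25 by limma) and 6.84 at MSTRG.1543 (2.45). Over all features the median change was 0.059, with quartiles of -0.36 and 0.47. With median-of-ratios scaling 8 features were higher and 7 lower, and with quantile scaling 13 and 9. The balance turned under other settings. With 0.1 FPKM added in place of 0.5, 7 were higher and 9 lower. A fit on only the 2 groups gave 3 and 4, and leaving out combined replicate 3 gave 10 and 15. A change in such bulk samples may reflect more or fewer cells of a type, or more or less RNA per cell. These cannot be told apart.

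Beyond these features, 4601 had an unadjusted p under 0.05 (11.8%), 2319 higher (5.95%) and 2282 lower (5.85%). The combined libraries lay wholly outside the hypoxic ones at 7084 features (18.2%), 3740 above (9.59%) and 3344 below (8.57%). The 26 adjusted p-values ran from 0.00562 to 0.0477, and 24 of them were 0.0442 or more. A further 161 features, 59 higher and 102 lower, had an adjusted p from 0.05 to 0.1, the nearest at 0.0502. Most calls thus lay close to the threshold. The median log2 change a feature needed to pass was 3.08, against a median absolute change of 0.42.

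The number of calls depended on single libraries. Without combined replicates 1 and 2 it was 2 and 7. Without combined replicate 3 it was 25, of which 9 were among the 26. Without hypoxic replicates 1, 2 and 3 it was 3, 0 and 1. Thermal and control libraries enter only through the shared estimate of the spread, yet without thermal replicates 1, 2 and 3 the count was 2, 76 and 11. Leaving out control replicates 1, 2 and 3 gave 3, 11 and 3 calls. The voom method of limma, run on the recovered reads, called 1 feature (0.00256%), with 4307 at an unadjusted p under 0.05.

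**Figure D1:**
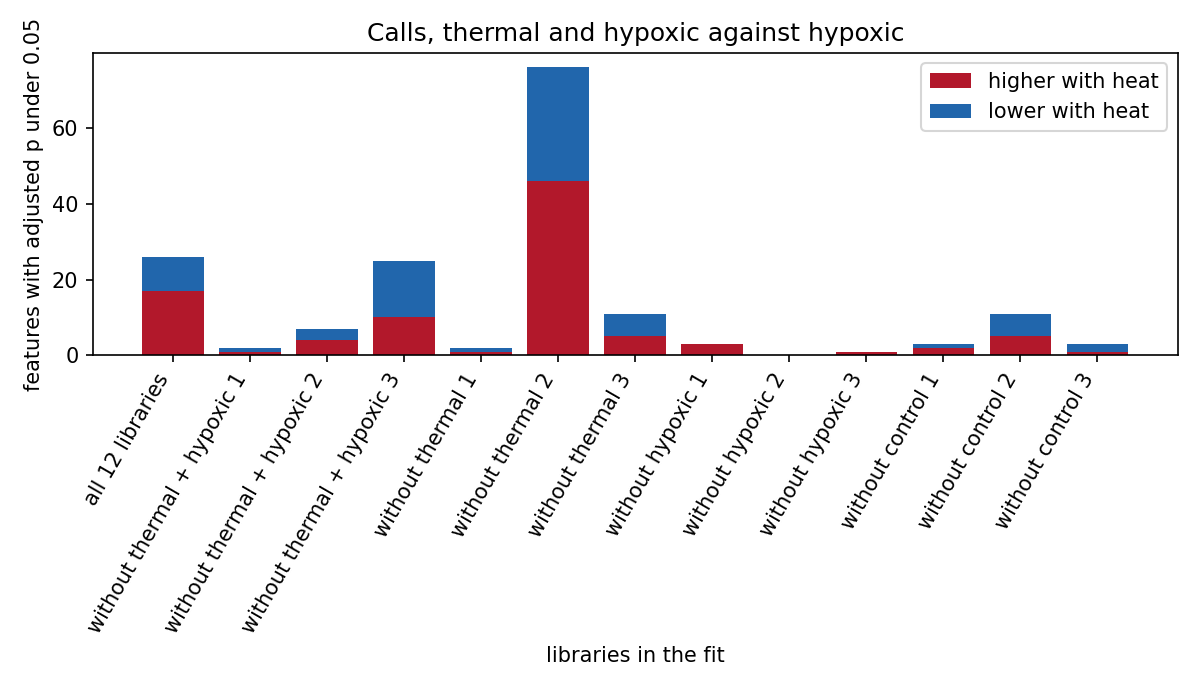
Number of features with an adjusted p under 0.05 between the combined and the hypoxic group (vertical axis), in the fit on all 12 libraries and with each library left out (horizontal axis), split into higher and lower with heat. The count of 26 fell to between 0 and 25 without 11 of the libraries and rose to 76 without thermal replicate 2.

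AJAP17693 was the feature that voom called as well. It is described because it had the smallest p-value, and was thus chosen after its values were seen. It stood at 285, 301 and 223 FPKM in the combined libraries, and at 11.2, 7.56 and 15.3 FPKM in the hypoxic ones. Every combined library was far above every hypoxic library, although the hypoxic replicates differed among themselves (mean 11.4 FPKM, SD 3.86). The log2 change was 4.55 (SE 0.42, adjusted p = 0.00562 by limma), and voom gave 4.62 (adjusted p = 0.0094). The rise rested on 17184 reads in the combined and 777 in the hypoxic libraries. It passed the threshold without 11 of the 12 libraries in turn, and missed it without hypoxic replicate 2 (log2 change 4.30, adjusted p = 0.0544). AJAP17693 was also higher with heat alone, at 73.5, 149 and 43.4 FPKM in the thermal libraries against 6.36, 7.63 and 13.6 FPKM in the control ones. That log2 change of 3.09 (SE 0.42) had an adjusted p of 0.0653. Control and hypoxic libraries overlapped, and the combined libraries lay above all 9 others.

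Among calls with no overlap between the groups, the 2 most abundant in each direction are also described. AJAP04789 held 248, 158 and 690 FPKM in the combined libraries, and 24.1, 6.23 and 4.76 FPKM in the hypoxic ones. The lowest combined library was well above the highest hypoxic one, although levels within each group differed several-fold. Its rise with heat was 4.98 log2 units (SE 0.74, adjusted p = 0.0477). With heat alone it was at 57.1, 197 and 49.8 FPKM in the thermal libraries, against 3.19, 0.508 and 1.56 FPKM in the control ones, a difference of 5.40 log2 units (SE 0.74, adjusted p = 0.0653). The heat changes with and without low oxygen differed by -0.42 (SE 1.04, adjusted p = 0.942 for the interaction). Its call in low oxygen was kept without thermal replicate 2 only, and lost without each of the other 11 libraries (adjusted p from 0.0524 to 0.169).

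AJAP01354 showed another course, since low oxygen alone had its lowest levels. The combined libraries were at 404, 160 and 271 FPKM, and the hypoxic ones at 27.5, 33.2 and 48.1 FPKM. Control libraries held 197, 85.2 and 104 FPKM, and thermal ones 138, 133 and 189 FPKM. The hypoxic libraries thus lay below all 9 others, and the combined group overlapped both groups without low oxygen stress. The log2 change with heat was 2.86 in low oxygen (SE 0.38, adjusted p = 0.0442) and 0.33 without it (SE 0.38, adjusted p = 0.816). The difference between these, 2.53 (SE 0.53), did not pass (adjusted p = 0.462). The call in low oxygen was lost without combined replicates 1 and 3, thermal replicate 1, any hypoxic replicate or control replicate 3 (adjusted p from 0.0632 to 0.164).

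AJAP13526 was the feature that fell with the smallest p-value. Its combined libraries held 26.26, 16.26 and 27.95 FPKM, against 163, 139 and 174 FPKM in the hypoxic ones. Control libraries, at 146, 158 and 162 FPKM, overlapped the hypoxic ones, and the thermal libraries, at 98.5, 50.5 and 121 FPKM, lay below both and above the combined group. In low oxygen the log2 difference with heat was -2.76 (SE 0.31, adjusted p = 0.0199). With heat alone the log2 change was -0.87 (SE 0.31, adjusted p = 0.353), and the interaction was -1.89 (SE 0.43, adjusted p = 0.477). The call was lost without combined replicate 1 and without any hypoxic replicate (adjusted p from 0.0524 to 0.115).

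AJAP25783 was highest under low oxygen alone. Its hypoxic libraries stood at 131, 137 and 109 FPKM and its combined libraries at 19.2, 33.7 and 29.6 FPKM. Control libraries held 18.0, 9.54 and 14.3 FPKM, and thermal ones 18.4, 12.2 and 9.10 FPKM. The combined group was therefore well below the hypoxic one and just above all 6 libraries without low oxygen stress. When heat was added the log2 change was -2.20 (SE 0.32, adjusted p = 0.0442), while heat alone gave -0.09 (SE 0.32, adjusted p = 0.951). The interaction of -2.12 (SE 0.45) had an adjusted p of 0.462. The call was lost without any combined or hypoxic replicate, thermal replicate 1 or control replicates 1 and 3 (adjusted p from 0.0632 to 0.166). On the recovered reads, voom gave an adjusted p of 0.0649 for AJAP04789 and 0.0585 for each of AJAP01354, AJAP13526 and AJAP25783, each above the threshold of 0.05.

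**Figure D2:**
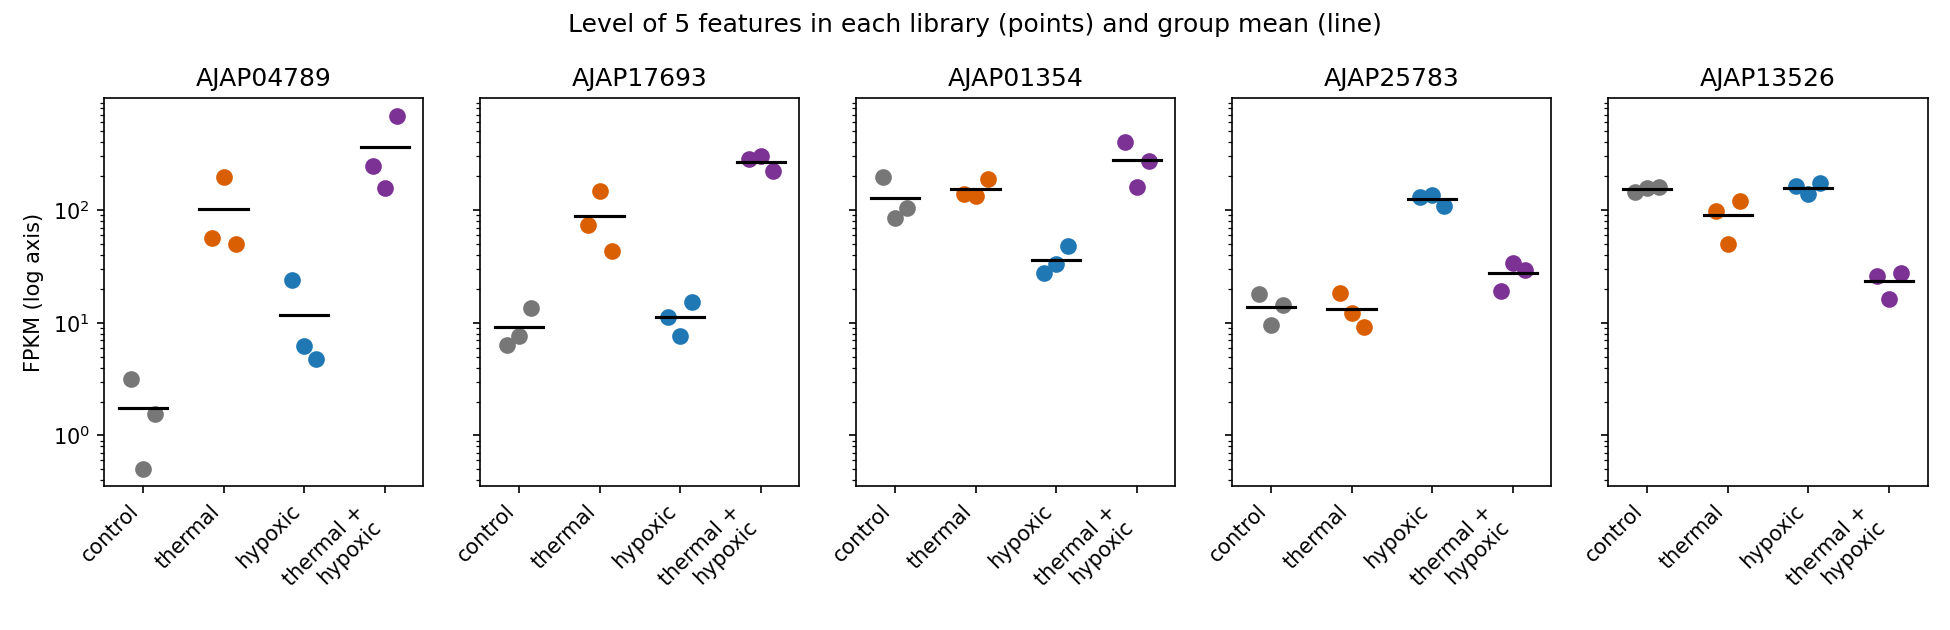
Level in FPKM (vertical axis, log scale) of 5 features in each of the 12 libraries, by group (horizontal axis), with points for libraries and lines for group means. AJAP17693 and AJAP04789 are highest in the combined group and higher in the thermal than in the control group, AJAP01354 is lowest and AJAP25783 highest under low oxygen alone, and AJAP13526 is lowest in the combined group.

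The 26 features were chosen on values that set the combined and hypoxic libraries far apart, which in part fixes where the other groups lie, so the order of the groups at these features is a description. Of the 17 higher features, control and hypoxic libraries overlapped at 10 (58.8%), against 69.1% of the 3740 features at which all combined libraries were above all hypoxic ones and 81.0% of all 21026 with a change above 0. At 4 all control libraries were above all hypoxic ones, and at 3 they were below. All control libraries were below all combined libraries at 14 of the 17 (82.4%), against 38.2% of the 3740 and 16.5% of the 21026. The thermal libraries were all below the combined ones at 11 (64.7%, against 20.8% and 8.63%), overlapped them at 5 and were all above them at 1. Of the 9 lower features, control and hypoxic libraries overlapped at 6 (66.7%), against 64.5% of the 3344 features at which all combined libraries were below all hypoxic ones and 78.2% of all 17976 with a change below 0. All control libraries were above all combined ones at 8 (88.9%, against 39.2% and 17.4%), with AJAP25783 as the exception. At 7 of the 9 (77.8%, against 25.4% and 12.3%) all thermal libraries were above all combined ones.

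**Figure D3:**
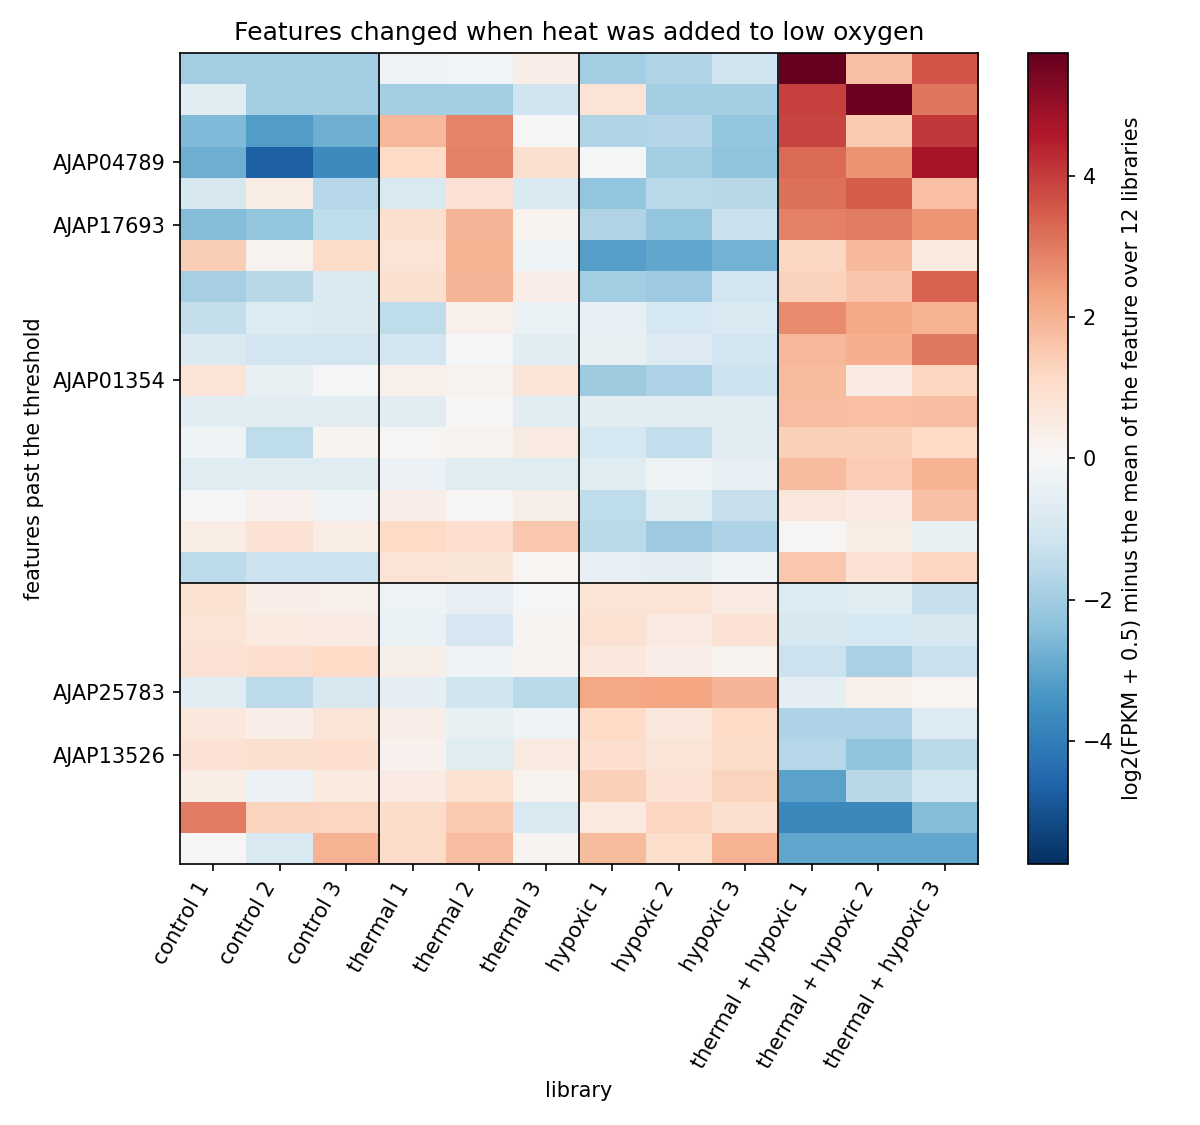
Each row is 1 of the 26 features, ordered by log2 change and with 5 of them labelled, and each column 1 of the 12 libraries. Colour gives log2(FPKM + 0.5) minus the mean of the feature over 12 libraries. The combined columns are high in the upper 17 rows and low in the lower 9, and the control and thermal columns differ between rows.

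Heat alone, the thermal against the control group, shares no library with the comparison in low oxygen. On the same features limma called 0 (0.0%). The smallest adjusted p was 0.0653, and 4134 features (10.6%) had an unadjusted p under 0.05. Voom also called 0, with 4042 unadjusted. With heat alone 22 of the 26 (84.6%) had a log2 difference of the same sign, 15 of the 17 higher and 7 of the 9 lower. Of all features tested, 54.6% did. At MSTRG.1543 and MSTRG.29334, counted among the 22, the sign rested on 9 and 4 reads in 1 thermal library each. An unadjusted p under 0.05 in the same direction was seen at 13 of the 26, and at 0 in the opposite one. Over all features tested these shares were 7.1% (2768) and 3.5% (1366). The median log2 change in the direction seen in low oxygen was 0.68 at the 26 with heat alone, against 0.068 over all features. The 26 were chosen for their change in low oxygen, so its size there is not set against that with heat alone. The calls used the spread of all 12 libraries, so the thermal and control libraries had a part in choosing the 26. A fit on the combined and hypoxic libraries only called 7 features, 3 of them among the 26. Of these 7, 5 had the same sign with heat alone, 2 of them with an unadjusted p under 0.05. Across all 39002 features, which are not independent and share their lengths in both comparisons, the log2 changes correlated at r = 0.133.

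**Figure D4:**
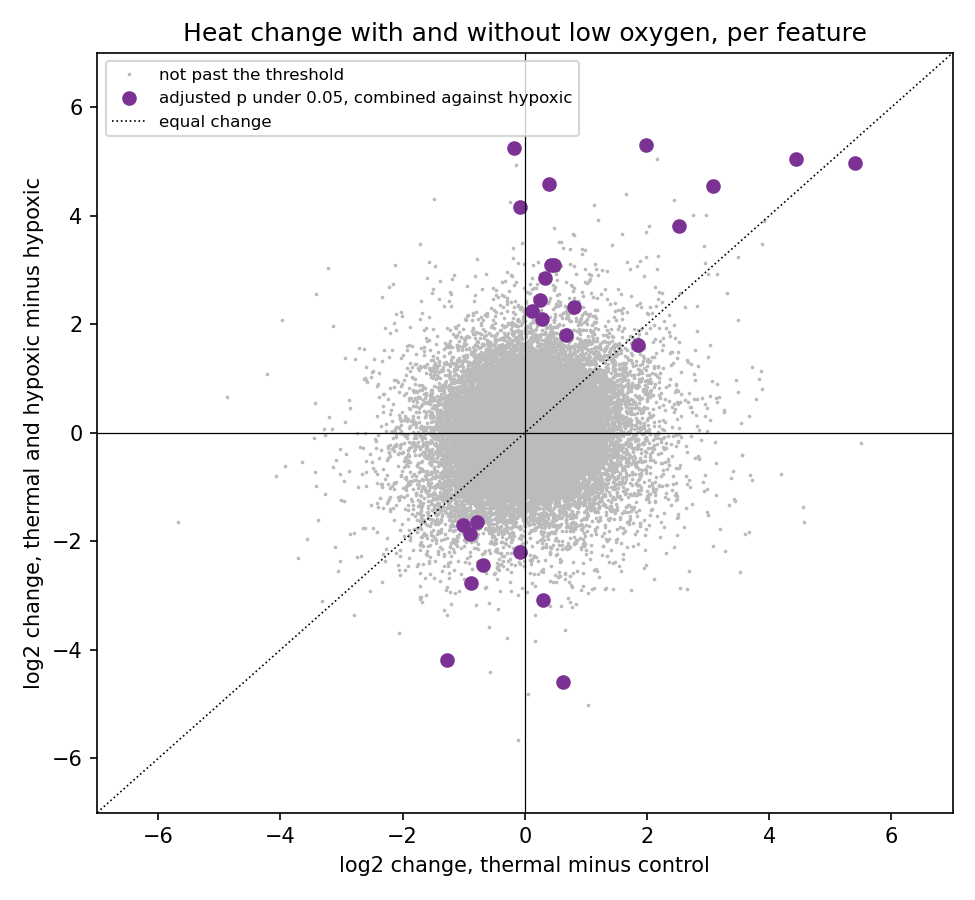
Log2 change with heat alone (horizontal axis, thermal minus control) and with heat in low oxygen (vertical axis, combined minus hypoxic) for each feature tested. Larger points are the 26 features past the threshold in low oxygen, 22 of which lie on the same side of 0 on both axes. They were chosen by their values on the vertical axis, which places them far from 0 there.

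Whether heat acted differently in low oxygen was tested as the interaction. Limma called 0 of the 39002 features (0.0%), and the smallest adjusted p was 0.453. An unadjusted p under 0.05 was found at 3134 (8.04%). Voom also called 0, with 2939 unadjusted. The count was 2 without control replicate 3. Differences of more than 2 log2 units, as at AJAP01354 and AJAP25783, did not pass, so the count of 0 does not show that heat acted alike at both oxygen levels.

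The mean level over the 6 libraries had a median of 27.1 FPKM at the 26 features, against 3.81 FPKM over the features tested. The calls were made on the same libraries, so this level can rest on the higher group alone. At MSTRG.1543 the combined libraries held 158 reads and the hypoxic ones 0. At MSTRG.58781 the combined libraries held 0 reads and the hypoxic ones 251. Below 1 FPKM 0 of 5764 features passed (413 at an unadjusted p under 0.05, and voom's 1 call was AJAP17693), from 1 to 10 FPKM 8 of 22342 (0.0358%), from 10 to 100 FPKM 15 of 9760 (0.154%), and from 100 FPKM 3 of 1136 (0.264%). The median standard error fell over the same classes from 0.559 to 0.278. Their median length, recovered with the reads, was 974.5 bases against 996.0 over all tested. AJAP features gave 15 of the calls, 0.072% of 20834, and MSTRG features 11, 0.0605% of 18168.

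At an unadjusted p under 0.05 by limma, more AJAP features were lower than higher, and more MSTRG features higher than lower. Of 20834 AJAP features tested 1101 were higher and 1494 lower, and of 18168 MSTRG features 1218 and 788. Over all features these shares were 5.95% and 5.85%, so the lean was small. All combined libraries lay above all hypoxic ones at 9.0% of AJAP and 10.3% of MSTRG features, against 9.59% of all. They lay below at 10.7% and 6.1%, against 8.57% of all. AJAP features were also more abundant, with a median of 7.31 FPKM against 2.08 FPKM for MSTRG features. Whether the class or the level goes with this difference was not tested. The median log2 change of MSTRG features was 0.143 as deposited, 0.098 with median-of-ratios and 0.088 with quantile scaling. That of AJAP features was 0.008 as deposited, and below 0 with either scaling (-0.045 and -0.041). MSTRG features made up 20.0%, 20.9% and 18.9% of the summed FPKM of the combined libraries, and 16.7%, 17.3% and 18.5% of that of the hypoxic ones. The groups did not overlap, and the means differed by 2.43 percentage points (exact permutation p = 0.1, two-sided, the smallest that 3 libraries against 3 can give). As a share of recovered reads the groups did overlap, at 27.3%, 27.3% and 25.1% against 23.8%, 23.5% and 25.5% (exact permutation p = 0.2, two-sided). Of the summed FPKM, MSTRG features made up 20.2%, 20.2% and 16.3% in the control libraries. In the thermal libraries they made up 20.2%, 20.4% and 22.8%. The control libraries thus overlapped both the combined and the hypoxic group, and differed among themselves by more than the 2 means did.

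The most abundant features were mostly lower when heat was added. This was looked at after the levels of the calls had been seen. Of the 100 features with the highest mean over the 6 libraries, all at 715 FPKM or more and 94 of them AJAP features, 77 had a log2 change below 0, with a median of -0.50. Of all 39002 features tested, 17976 had a change below 0. All combined libraries lay below all hypoxic ones at 52 of them and above at 7, against 8.57% and 9.59% of all features tested. With quantile scaling, which sets the level at each rank equal in all libraries, these counts were 24 and 11, and 65 had a change below 0. Under that scaling the combined libraries all lay below at 11.6% of AJAP and 7.0% of MSTRG features tested, and above at 8.0% and 9.48%. At an unadjusted p under 0.05 there were 45 lower and 4 higher. None of the 100 passed the adjustment (smallest adjusted p 0.075, with voom's single call outside them). With heat alone 68 of the 100 had a change below 0, with a median of -0.24, against 378 of the 900 features at ranks 101 to 1000. The median in low oxygen was -0.56 with median-of-ratios scaling and -0.15 with quantile scaling.

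Per library the difference was uneven. The 100 features took 24.0%, 23.2% and 27.8% of the summed FPKM in the combined libraries, and 30.0%, 29.5% and 25.8% in the hypoxic ones. Combined replicate 3 and hypoxic replicate 3 overlapped. The means differed by -3.43 percentage points (exact permutation p = 0.2, two-sided), with an SD of 2.46 in the combined and 2.29 in the hypoxic group. With 3 libraries on each side this test gives no p below 0.1, so it cannot decide whether the groups differ. In control libraries the share was 27.4%, 25.9% and 32.3%, and in thermal ones 25.3%, 25.6% and 26.2%. These overlapped as well, and differed by -2.83 percentage points (exact permutation p = 0.2, two-sided). The joint share of the 2 most abundant of all went the other way. Together they took 6.89%, 7.58% and 7.15% of the combined libraries and 5.13%, 6.20% and 6.25% of the hypoxic ones, with no overlap (exact permutation p = 0.1, two-sided). The second of them overlapped in FPKM, at 25933, 24645 and 27929 in the combined and 14605, 25106 and 24579 in the hypoxic libraries. Summed FPKM was lower in the combined group (mean 774653 against 823952), which also raises a share. In control libraries the 2 features took 6.5%, 5.29% and 7.2%, and in thermal ones 5.36%, 5.72% and 7.99%. Both of these groups overlapped the combined and the hypoxic group.

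**Figure D5:**
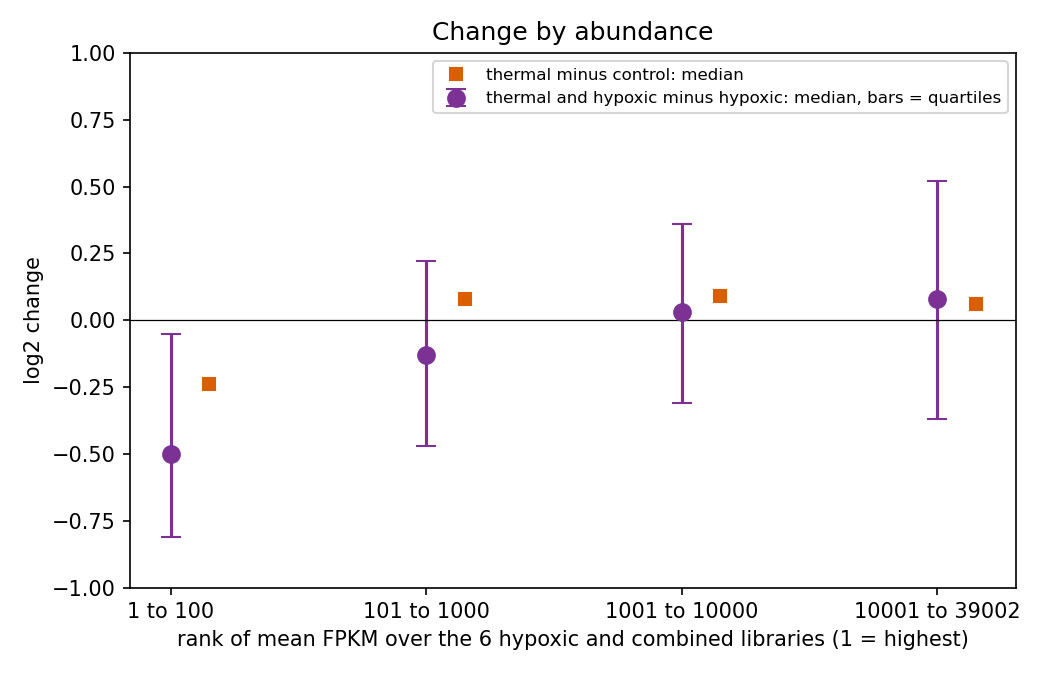
Median log2 change (vertical axis) of features by the rank of their mean FPKM (horizontal axis, 1 the highest), with bars from the lower to the upper quartile for combined minus hypoxic and squares for thermal minus control. The median is -0.50 at ranks 1 to 100, -0.13 at ranks 101 to 1000, and 0.03 and 0.08 at lower levels.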

How the data were processed

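The authors deposited FPKM values with 1 column per library, which was matched to its treatment label by title. Their processing notes name TopHat2 (2.0.12), Bowtie2 (2.2.3), DESeq (1.16) and Cufflinks, per the labels. What each did, and the build, annotation and strand setting of the counting, is not given in the sources used here. Reads of overlapping or near-identical features may therefore be shared.

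Whole reads and lengths were recovered as the totals at which all values of a feature become whole reads (tolerance 0.001 reads; 100.0% of 59494 features, 0.0% of 1000 with wrong totals). Reads carry no molecular identifiers.

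Values were taken as log2(FPKM + 0.5), a scale that understates the change of low features. One limma model (3.58.1, R 4.3.3) with 4 group means and a trend of variance gave all contrasts, with Benjamini-Hochberg adjustment over the 39002 features. Recovery and fit were tested on simulated data. Named features were the 2 calls per direction with the highest mean FPKM and no overlap; AJAP17693 was added. The members, lists and tests were chosen with earlier results of these data known. Permutation tests used Python 3.11.15 and scipy 1.17.1. Alternatives covered pseudocount, filter, scaling, fit, voom, replicate block and left-out libraries.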

Additional observations from a re-analysis of the deposited data

How the results depend on the processing

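The count of features that differed between the combined and the hypoxic group was 26. It was 16 with a pseudocount of 0.1, 3 without a filter, 15 with median-of-ratios scaling, 7 in a fit on only the 2 groups, 4 without a trend of variance, 1 with voom, and 16 with the filter taken over all 12 libraries, an alternative chosen after seeing the data. A pseudocount of 1, a filter at 2 FPKM, quantile scaling and robust variance gave 18, 34, 22 and 37. Leaving out 1 library gave 0 to 76. The cause of these moves was not tested. With a replicate block the count was 6, 5 of them among the 26. Libraries of the same number in the 2 groups did not deviate together (correlations of -0.057, -0.016 and -0.093) and none matched its own number best, so the numbers were not taken as pairs.

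The 5 features described kept their direction under every alternative run, and AJAP17693 its call under all but leaving out hypoxic replicate 2. For heat alone the count of 0 became 2 without a filter, 8 with the filter over 12 libraries, and 0 to 1 with a library left out. The interaction count ran from 0 to 2 with a library left out. The share of called features that moved the same way with heat alone was 100% without a filter, without a trend and with voom, on 3, 4 and 1 calls, and 66.7% to 100% with a library left out. Without thermal replicate 2 it was 69.7% of 76 calls, with 4 at an unadjusted p under 0.05 by limma in the opposite direction. Without combined replicate 3 it was 68% of 25 calls, with 3 such features. The MSTRG difference ran from 1.95 to 2.95 percentage points, and the median of the 100 most abundant features from -0.582 to -0.43, with a library left out. With quantile scaling that median was -0.145, and rescaled without the 2 most abundant features it was -0.394. Near the filter, at 0.5 FPKM, a value rested on a median of 10 reads, and the median standard error was 0.559 below 1 FPKM and 0.278 from 100 FPKM.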

Other observations

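Some features had reads on one side only. At 28 features all 3 combined libraries held at least 0.5 FPKM while the 3 hypoxic libraries had 0 reads, and 25 of these were MSTRG features. They were 0.0471% of the table, in which 30908 of 59494 features (52.0%) are MSTRG features. In the opposite direction, 49 features were at 0.5 FPKM or more in every hypoxic library and had 0 reads in every combined one (0.0824%), 43 of them MSTRG features. Most were near the filter, with median levels of 1.35 and 1.26 FPKM on the side with reads, and 4 and 3 of them reached 2 FPKM in all 3 libraries. One in each direction passed limma's test. Between the thermal and control groups, which share no library with these, the same counts were 52 with reads in the thermal group only (0.0874%) and 32 with reads in the control group only (0.0538%). A count of 0 in a library allows up to 3 reads.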
